A study of Mus musculus with 3 samples.

Results

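Cytosolic nucleic acid sensing is covered here by 7 mouse genes: Ddx58 (RIG-I), Ifih1 (MDA5), Dhx58 (LGP2), Mavs, Tmem173 (STING), Eif2ak2 (PKR) and Adar (ADAR1). They were chosen by name for their role, with earlier results of these data known, and no measured value enters the choice. All 7 were found among the 55536 genes of the gene tables, of which 22028 are protein-coding. The data are total RNA sequencing, after removal of ribosomal RNA, of the chromatin fraction of bone marrow-derived macrophages, which are primary cells grown from the marrow of C57BL/6J mice. Every library came from cells given Lipid A (the TLR4-activating part of bacterial lipopolysaccharide) at 100 ng/ml for 12 h, kept without it for 12 h, and given 100 ng/ml again for 20 min. The series has this 1 group, with 3 libraries labelled biological replicates 1, 2 and 3, so no value below is an effect of Lipid A and no comparison between treatments can be made. The labels give the 3 libraries the same donor entry and no sex or age, and their spread may in part be technical.

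RIG-I and MDA5 are helicases that bind double-stranded or otherwise foreign RNA in the cytosol, and LGP2 is a related helicase that lacks the signalling domains and modulates them. Bound RIG-I or MDA5 engages MAVS on mitochondria, while STING, on the endoplasmic reticulum, receives the cyclic dinucleotide made by the DNA sensor cGAS, and both adaptors lead through the kinases TBK1 and IKKε to interferon genes. PKR is a kinase that binds double-stranded RNA and then blocks translation through eIF2α, and ADAR1 converts adenosine to inosine in double-stranded RNA, which limits recognition of the cell's own RNA by MDA5. In macrophages several of these genes are known to be induced by type I interferon, which TLR4 also elicits.

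The promoters are shown first because interferon-responsive genes often carry the interferon-stimulated response element, whose core is a pair of GAAA blocks. RefSeq windows of 300 bases on GRCm38.p6, from 250 bases before to 50 bases after a transcription start, were found for 5 of the 7 genes, with 7 windows in all. Each was searched on both strands for GAAANNGAA, where N is any base, and for a longer form of it with 1 further A at its end, which always contains the shorter one. The windows below run 5′ to 3′ on the gene's strand, and capitals mark every match to either motif.

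Ddx58, chr4:40239776-40240075, minus strand: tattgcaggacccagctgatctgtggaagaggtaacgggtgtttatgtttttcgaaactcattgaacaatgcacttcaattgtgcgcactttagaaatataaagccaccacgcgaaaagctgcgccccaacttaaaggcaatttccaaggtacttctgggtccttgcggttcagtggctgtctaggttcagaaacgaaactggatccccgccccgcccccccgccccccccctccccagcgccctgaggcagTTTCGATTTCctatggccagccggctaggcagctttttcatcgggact
Ifih1, chr2:62646206-62646505, minus strand: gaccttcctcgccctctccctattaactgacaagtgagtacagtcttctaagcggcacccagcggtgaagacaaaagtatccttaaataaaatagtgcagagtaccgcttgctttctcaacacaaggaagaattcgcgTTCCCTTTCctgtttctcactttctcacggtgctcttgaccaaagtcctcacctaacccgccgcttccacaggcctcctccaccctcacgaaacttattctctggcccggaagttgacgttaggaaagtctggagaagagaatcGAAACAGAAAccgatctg
Eif2ak2, chr17:78882523-78882822, minus strand: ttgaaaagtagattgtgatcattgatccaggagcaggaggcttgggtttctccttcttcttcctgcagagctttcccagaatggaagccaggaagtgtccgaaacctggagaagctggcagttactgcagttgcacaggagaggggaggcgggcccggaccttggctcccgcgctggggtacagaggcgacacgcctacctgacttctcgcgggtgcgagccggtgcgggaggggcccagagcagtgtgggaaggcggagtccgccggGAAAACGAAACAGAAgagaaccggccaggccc
Adar, downstream start, chr3:89730468-89730767, plus strand: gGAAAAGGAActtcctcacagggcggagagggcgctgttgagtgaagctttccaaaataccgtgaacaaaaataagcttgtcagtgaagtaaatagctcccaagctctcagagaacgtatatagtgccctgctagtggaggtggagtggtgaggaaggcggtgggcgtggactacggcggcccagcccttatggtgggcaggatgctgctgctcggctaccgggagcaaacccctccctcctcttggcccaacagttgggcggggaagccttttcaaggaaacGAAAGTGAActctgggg
Mavs, chr2:131233813-131234112, plus strand: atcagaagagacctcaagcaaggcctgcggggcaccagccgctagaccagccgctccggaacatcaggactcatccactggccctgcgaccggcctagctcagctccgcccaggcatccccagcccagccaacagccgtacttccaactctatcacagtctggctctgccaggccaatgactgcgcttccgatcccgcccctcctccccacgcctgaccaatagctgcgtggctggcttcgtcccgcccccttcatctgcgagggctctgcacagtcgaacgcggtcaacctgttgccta

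The longer motif was present in the windows of Ddx58, Ifih1 and Eif2ak2, and in each it lay just downstream of the start site. Counting the first transcribed base as 1, its first base in the window was at position 3 in Ddx58, where the match GAAATCGAAA is on the opposite strand, at 33 in Ifih1 (GAAACAGAAA) and at 19 in Eif2ak2 (GAAAACGAAA). In Eif2ak2 a match to the shorter motif, GAAACAGAA, overlaps it from position 25, and Ifih1 has another on the opposite strand, GAAAGGGAA, that begins 112 bases before the start. The downstream start of Adar had only the shorter motif, at position 34 (GAAAGTGAA) and 249 bases before the start (GAAAAGGAA). Mavs had neither motif, nor had the 2 windows at the upstream start of Adar. Of 32851 RefSeq promoter windows of the same length, 3.44% held the longer motif and 8.56% held GAAANNGAA. Dhx58 and Tmem173 have no window shown. A match is a run of letters and not a measured binding site.

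Levels are given in TPM, the authors' estimate of transcript abundance scaled for transcript length and to the same total in every library. Comparison of TPM between genes depends on how reads were divided among the transcripts of each gene, as described below. Total expected counts, which are estimated read numbers, were 13953780, 24222661 and 16571228 in replicates 1, 2 and 3, and starting RNA was 1 µg, 250 ng and 500 ng in the same order, so RNA amount and replicate cannot be told apart. A count of 0 would allow up to 3 counts, or 0.220, 0.124 and 0.182 CPM (counts scaled to library size) in replicates 1, 2 and 3. The labelled cell type was checked on markers: 9 of 9 macrophage genes, Adgre1, Csf1r and Lyz2 among them, had at least 1 TPM in every library, with summed levels of 872 to 1071 TPM. Of 37 markers of other cell types, 3 reached that level in every library, Alas2 at 9.37 to 14.2 TPM, Kdr at 1.48 to 10.2 TPM and Zbtb46 at 1.20 to 1.57 TPM, and 12 were listed at 0 in every library.

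All 7 sensing genes had at least 1 TPM in every library, a level that 45.2% of all protein-coding genes reached. The median of the 7 mean levels was 114 TPM, against 0.677 TPM over all protein-coding genes. On the scale log2(TPM + 1) the difference between these medians was 6.11, with 6.50, 6.03 and 5.98 in replicates 1, 2 and 3. The 3 sensors, PKR and ADAR1 formed a high group between 102 and 232 TPM, and the adaptors Mavs and Tmem173 stood apart at 8.73 and 5.08 TPM. In such bulk RNA, fewer cells that express a gene and less RNA per cell cannot be told apart. The plot of levels by library shows both groups of genes.

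**Figure D1:**
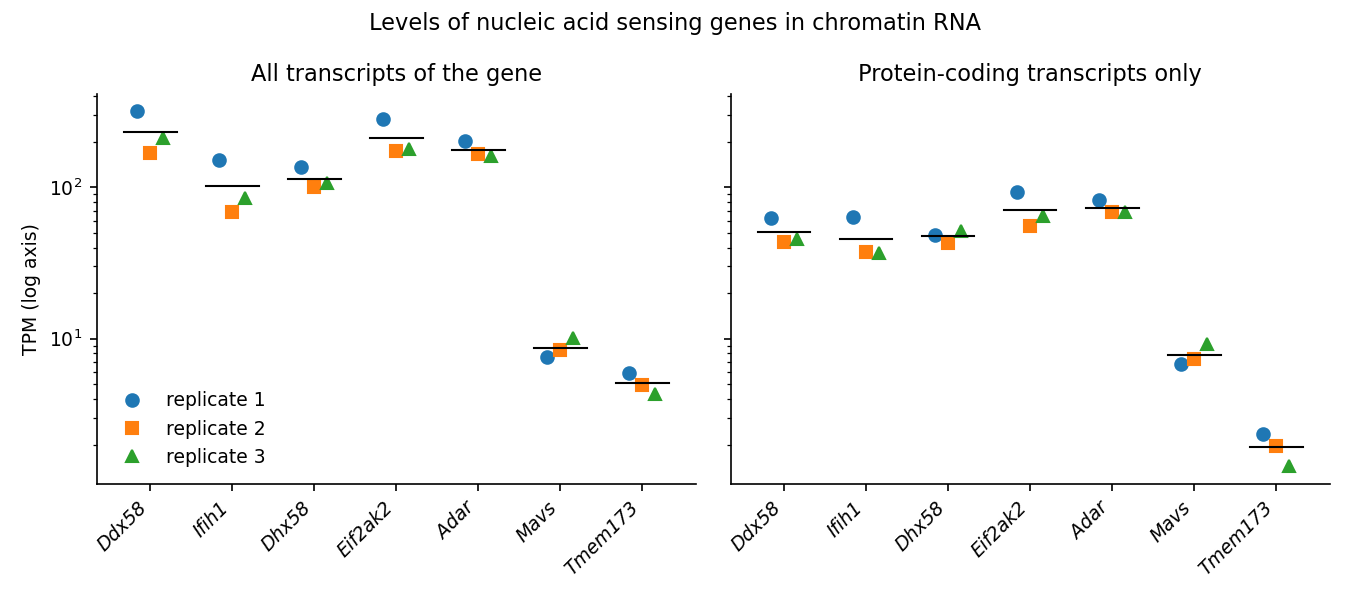
TPM of each gene on a log axis, with 1 point per library (replicates 1, 2 and 3) and a line at the mean, for all transcripts of the gene (left) and for its protein-coding transcripts only (right). On the left the 5 sensor and effector genes lie between 69.0 and 318 TPM in every library and Mavs and Tmem173 between 4.34 and 10.1 TPM.

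Ddx58, which encodes RIG-I and lies on the minus strand of chromosome 4 (40203773 to 40239828, mm10), had the highest mean level of the 7. It had 318, 168 and 211 TPM in replicates 1, 2 and 3, a mean of 232 ± 77.1 TPM (SD, n = 3), from 6339, 7871 and 5134 expected counts. Replicate 1 was the highest and replicate 2 the lowest, while the exact Poisson 95% interval of the counts in replicate 1, for counting error only, was 6184 to 6497. Its mean level was above that of 99.3% of protein-coding genes.

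Ifih1, which encodes MDA5, the sensor of long double-stranded RNA, lies on chromosome 2, minus strand (62595798 to 62646255). Its levels were 151, 69.0 and 85.3 TPM in replicates 1, 2 and 3, a mean of 102 ± 43.6 TPM (SD, n = 3), from 5863, 6305 and 4031 expected counts. As for Ddx58, replicate 1 stood above both others. Dhx58, which encodes LGP2, is on chromosome 11, minus strand (100694884 to 100704271), and had 136, 100.2 and 106 TPM, a mean of 114 ± 19.5 TPM (SD, n = 3), from 1866, 3256 and 2021 expected counts. Its 3 libraries were closer together than those of either other sensor.

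Within each library Ddx58 exceeded Ifih1 by a similar factor, 2.10, 2.44 and 2.47 in replicates 1, 2 and 3. Ddx58 exceeded Dhx58 by 2.33, 1.68 and 1.99 times in the same order. The ratio of Ifih1 to Dhx58 was 1.11, 0.688 and 0.804, so these genes changed places between replicate 1 and the others.

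Mavs, the adaptor of both signalling sensors, lies on chromosome 2, plus strand (131234063 to 131248025), and had 7.59, 8.48 and 10.1 TPM in replicates 1, 2 and 3, a mean of 8.73 ± 1.28 TPM (SD, n = 3). These values rest on 239, 590 and 383 expected counts, and replicate 1 was the lowest, the reverse of the sensors. The sensor RNA exceeded that of its adaptor in every library: the ratio of Ddx58 to Mavs was 41.9, 19.8 and 20.9 in replicates 1, 2 and 3, and that of Ifih1 to Mavs 19.9, 8.13 and 8.44. These ratios take all transcripts of each gene. On protein-coding transcripts only, Ddx58 had 62.7, 43.2 and 45.5 TPM and Ifih1 63.4, 37.3 and 36.8 TPM in the same order. Mavs had 6.85, 7.34 and 9.19 TPM there, so the sensors were still higher but by a smaller factor.

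Tmem173, the STING gene on chromosome 18, minus strand (35733679 to 35740554), was the lowest of the 7. It had 5.98, 4.91 and 4.34 TPM in replicates 1, 2 and 3, a mean of 5.08 ± 0.833 TPM (SD, n = 3). Only 75, 109 and 48 expected counts lie behind these values, and the exact Poisson 95% intervals of those counts, which cover counting error only, run over 59.0 to 94.0, 89.5 to 131 and 35.4 to 63.6. Mavs exceeded Tmem173 by 1.27, 1.73 and 2.33 times in replicates 1, 2 and 3.

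Eif2ak2, the PKR gene on chromosome 17, minus strand (78852564 to 78882573), had 281, 175 and 179 TPM in replicates 1, 2 and 3, a mean of 211 ± 59.9 TPM (SD, n = 3), from 5385, 7038 and 4371 expected counts. Replicate 1 was again apart, and the others differed little. Adar, on chromosome 3, plus strand (89715022 to 89753446), had 203, 165 and 160 TPM, a mean of 176 ± 23.5 TPM (SD, n = 3), from 5346, 9354 and 5330 expected counts. Its replicate 1 was also highest on this scale, by a smaller margin. The ratio of Eif2ak2 to Adar was 1.38, 1.06 and 1.12 in the 3 libraries.

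The order of the 7 genes was examined with differences of log2(TPM + 1) taken within each library. Neighbours were called separated when the difference had the same sign in all 3 libraries and its mean exceeded its SD. With 3 libraries an exact sign-flip test cannot go below a p of 0.25, so no p is given. By this rule 4 of the 6 neighbouring pairs were separated. Ddx58 and Eif2ak2 were not, at a difference of 0.12 ± 0.15 (SD, n = 3), nor were Dhx58 and Ifih1 at 0.23 ± 0.35. Eif2ak2 was above Adar by 0.24 ± 0.20 and Adar above Dhx58 by 0.62 ± 0.08. The widest step, 3.33 ± 0.71, was between Ifih1 and Mavs, and Mavs was above Tmem173 by 0.68 ± 0.38. In a second set of estimates from the same reads, described below, Ddx58 was separated from Eif2ak2, at 0.34 ± 0.15, and Mavs was not from Tmem173, at 0.62 ± 0.61.

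Variation between libraries was measured on log2 CPM, which is scaled for library size with TMM factors and not for transcript length. The SD over the 3 libraries was 0.43 for Tmem173, 0.41 for Ifih1, 0.29 for Mavs, 0.28 for Ddx58, 0.27 for Eif2ak2, 0.14 for Adar and 0.07 for Dhx58. The median over the 7 genes was 0.28, against 0.19 over the 9540 protein-coding genes that averaged 50 or more counts. Individual genes lay on both sides of that background: 87.7% of those genes had a smaller SD than Ifih1, and 12.1% a smaller SD than Dhx58. Tmem173, with the largest SD, also has the fewest counts of the 7. On this scale the span between libraries was 1.69-fold for Ifih1 and 1.10-fold for Dhx58. Without replicate 1 the median SD of the 7 genes was 0.10, against 0.14 over the same protein-coding genes.

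On log2 CPM, 4 of the 7 genes were highest in replicate 1 (Ddx58, Ifih1, Eif2ak2 and Tmem173), while 32.1% of protein-coding genes were. The other 3, Dhx58, Mavs and Adar, were highest in replicate 2, as were 39.6% of protein-coding genes. Replicate 3 was the lowest library for 6 of the 7, Mavs being the exception, and for 24.9% of protein-coding genes; Mavs was lowest in replicate 1, as were 41.2%. None of the 7 was highest in replicate 3, as 28.3% of protein-coding genes were. For Ifih1 the deviations from its mean were 0.47, -0.18 and -0.28 in replicates 1, 2 and 3, and for Ddx58 they were 0.32, -0.12 and -0.20. Eif2ak2 deviated by 0.29, -0.08 and -0.22. These 3 genes share a profile with 1 high library, whereas Mavs deviated by -0.34, 0.21 and 0.13, with replicate 1 low. The scale bears on these counts: with library size alone 6 of the 7 genes were highest in replicate 1, as were 40.1% of protein-coding genes. On TPM 6 of the 7 were highest in replicate 1, all but Mavs, beside 51.4% of protein-coding genes, and Mavs was highest in replicate 3, beside 39.1%. None was highest in replicate 2 on TPM, beside 9.43%.

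**Figure D2:**
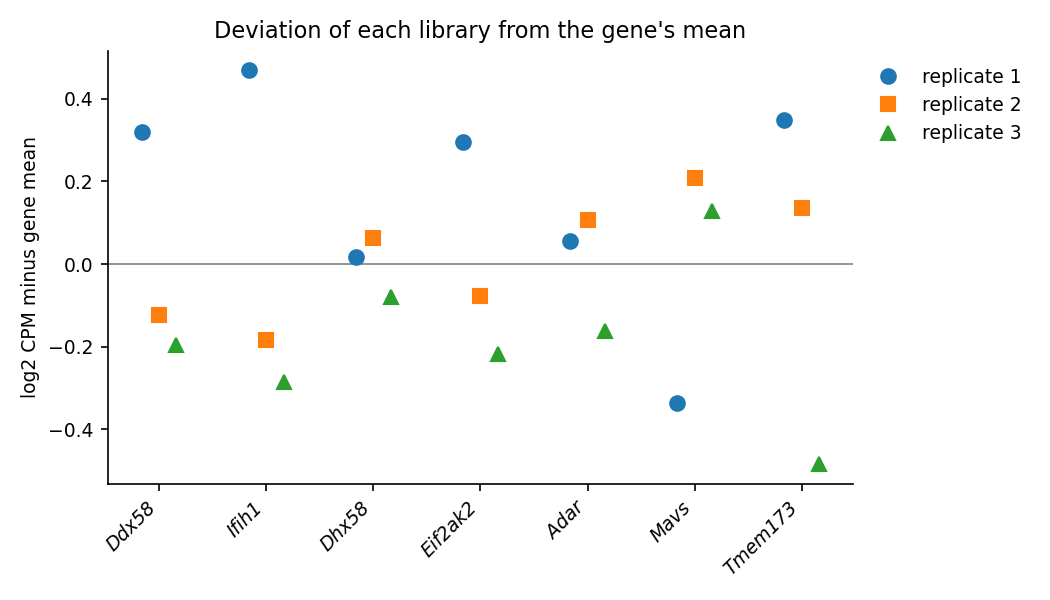
Deviation of each library from the mean log2 CPM of the gene, with 1 point per library (replicates 1, 2 and 3) for each of the 7 genes; the grey line marks no deviation. Replicate 1 is the highest point for Ddx58, Ifih1, Eif2ak2 and Tmem173 and the lowest for Mavs, and Dhx58 stays within 0.08 of its mean.

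The genes with profiles most like the average of the 7 were Tap1, Sp100 and Nectin4, at Euclidean distances of 0.012, 0.0122 and 0.0144 on centred log2 CPM over the 3 libraries. Tap1, a subunit of the transporter that carries peptides to MHC class I, had 121, 84.4 and 93.0 TPM in replicates 1, 2 and 3. Sp100, a component of nuclear bodies, had 561, 393 and 427 TPM. Nectin4 was far lower, with 9.39, 6.76 and 7.30 TPM. Of 9533 protein-coding genes, 253 lay within a distance of 0.1. None of the 7 genes did: Adar was the nearest to their average at 0.144 and Mavs the farthest at 0.623, so the average describes no single member closely.

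Transcript tables divide each gene's level among annotated transcripts, which GENCODE classes as protein-coding, retained intron, processed transcript or subject to nonsense-mediated decay. The deposited data hold 2 estimates of this division, called the first and the second transcript table here, and they come from the same reads. The share of TPM on transcripts not annotated as protein-coding was above 50% for 6 of the 7 genes in the first table, all but Mavs, beside 52.5% of 8595 protein-coding genes that have such a transcript and average 1 TPM or more. The median share over those genes was 51.9%.

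Among the sensors, Ddx58 had the largest share, 80.3, 74.3 and 78.4% in replicates 1, 2 and 3, a mean of 77.7 ± 3.04% (SD, n = 3). Ifih1 had 58.1, 45.9 and 56.8%, a mean of 53.6 ± 6.73%, and Dhx58 64.5, 57.2 and 51.1%, a mean of 57.6 ± 6.68%. In the 3 libraries the shares of Ddx58 did not overlap those of the other sensors. Eif2ak2 averaged 66.3 ± 2.29% and Adar 58.4 ± 1.06% (SD, n = 3 each), both with little spread. Mavs had 9.63, 13.4 and 9.01%, a mean of 10.7 ± 2.40%, which set it apart from the other 6 genes. Tmem173 averaged 62.4 ± 3.83%.

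In the second table the same shares were 84.7% for Ddx58, 71.7% for Ifih1, 70.3% for Dhx58, 72.4% for Eif2ak2 and 62.5% for Adar, and the background median was 59.5%. Those 5 of the 7 exceeded 50%, as did 63.5% of protein-coding genes in that table. Mavs had 38.9% there and Tmem173 31.5%, so the place of both adaptors depends on the table. TPM divides by transcript length and these transcripts are mostly short. Shares of expected counts in the first table were lower, 53.2% for Ddx58, 36.3% for Ifih1, 26.4% for Dhx58, 15.6% for Eif2ak2 and 11.6% for Adar. On this measure Tmem173, at 53.7 ± 9.49%, and Ddx58, at 53.2 ± 4.75%, were close (SD, n = 3 each), and Mavs had 9.87%. In the second table the shares of estimated counts were 20.4% for Tmem173 and 59.6% for Ddx58. No background over protein-coding genes is given for these count shares. Between 0 and 92.3% of the length of such a transcript lies outside the coding transcripts' exons, and reads in shared exons are divided by the estimate alone.

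**Figure D3:**
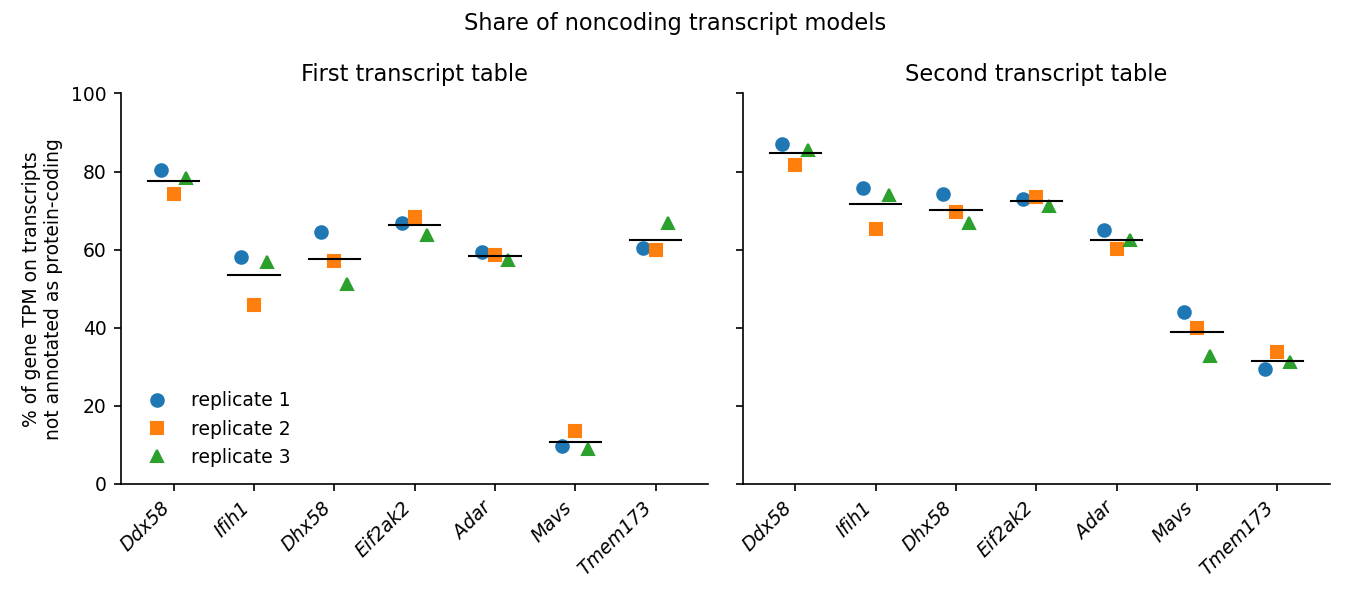
Percent of a gene's TPM on transcripts not annotated as protein-coding, with 1 point per library (replicates 1, 2 and 3) and a line at the mean, in the first (left) and second (right) transcript table. Ddx58 is highest in both, with means of 77.7 and 84.7%, while Mavs and Tmem173 change their places between the tables.

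Both tables gave similar levels for the protein-coding transcripts of 5 genes. In the first and second table these were 50.5 and 52.7 TPM for Ddx58, 45.8 and 45.5 TPM for Ifih1, 47.7 and 49.2 TPM for Dhx58, 71.2 and 76.2 TPM for Eif2ak2, and 73.0 and 69.7 TPM for Adar. For Mavs they were 7.79 and 6.44 TPM and for Tmem173 1.92 and 4.67 TPM. The tables were further apart on the other transcripts, with 182 and 304 TPM for Ddx58 and 56.0 and 123 TPM for Ifih1. On protein-coding transcripts of the first table Adar was the highest of the 7 and Ddx58 the third, 0.47 ± 0.11 log2 units below Eif2ak2 (SD, n = 3). Adar and Eif2ak2 were not separated there, at 0.06 ± 0.24, and Dhx58 and Ifih1 followed Ddx58 with unseparated steps of 0.06 ± 0.28 and 0.10 ± 0.44. Both adaptors stayed below the other 5 genes, Mavs by 2.38 ± 0.59 and Tmem173 by a further 1.59 ± 0.43.

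The gap between replicate 1 and the others was also taken by transcript class in the first table. For Ddx58 the ratio of replicate 1 to replicate 2 was 2.04 on transcripts that are not protein-coding and 1.45 on protein-coding ones, and that of replicate 1 to replicate 3 was 1.54 and 1.38. Dhx58 had 1.53 and 1.13 over replicate 2, and 1.62 and 0.935 over replicate 3. Both genes had the larger ratio on the transcripts that are not protein-coding, whichever library replicate 1 was set against. Ifih1 had 2.78 and 1.70 over replicate 2 but 1.82 and 1.72 over replicate 3, where the classes were close. Eif2ak2 had 1.57 and 1.68 over replicate 2 and 1.64 and 1.44 over replicate 3, so its order of classes depended on the library. For Adar the ratios were 1.25 and 1.21 over replicate 2 and 1.31 and 1.21 over replicate 3, while the second table gave 1.35 and 1.09 over replicate 2. The share of TPM on such transcripts was higher in replicate 1 than in replicate 2 for 5 of the 7 genes in the first table, all but Mavs and Eif2ak2, beside 49.9% of protein-coding genes. In the second table it was higher for 5 of the 7, all but Tmem173 and Eif2ak2, beside 55.9% of protein-coding genes.

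The single transcript with the largest mean share of Ddx58 in the first table was the protein-coding Ddx58-201 at 22.3%. The processed transcripts Ddx58-206, Ddx58-210, Ddx58-207, Ddx58-203 and Ddx58-205 held 16.4, 16.1, 14.0, 11.3 and 11.1%. Ddx58-207 had 54.8, 18.6 and 29.2 TPM in replicates 1, 2 and 3, the widest SD among these. The second table gave most to Ddx58-208, at 92.6 TPM against 16.3 TPM in the first.

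For Ifih1 the retained-intron transcripts Ifih1-203 and Ifih1-205 held 37.5 and 12.6%, and the protein-coding Ifih1-201 and Ifih1-202 held 31.5 and 14.9%. Ifih1-204 held 3.45% in the first table and 45.6% in the second, so single transcripts are uncertain. Dhx58-201, the 1 protein-coding transcript of Dhx58, held 42.4%, and the processed transcripts Dhx58-204 and Dhx58-203 held 35.8 and 14.7%. Dhx58-206 and Dhx58-205 had 17.4 and 10.8% in the second table, against 4.90 and 0.561% in the first.

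Of the adaptors, Mavs had 60.7 ± 12.7% on Mavs-201 and 28.6% on Mavs-202, both protein-coding. The second table gave them 26.3 and 34.8%, with 26.2% on Mavs-203, of the nonsense-mediated decay class, and 12.7% on Mavs-204. Tmem173 had 28.3% on each of the retained-intron transcripts Tmem173-206 and Tmem173-207 in the first table, while the second gave most, 28.3%, to the protein-coding Tmem173-205. Its protein-coding transcripts Tmem173-204 and Tmem173-208 held 12.7 and 10.5% there. At 48 to 109 counts for the whole gene these divisions rest on few reads.

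Eif2ak2-201, the 1 protein-coding transcript of PKR, held 33.7% in the first table. Beside it stood the retained-intron transcripts Eif2ak2-202 at 28.1% and Eif2ak2-204 at 11.9%, and the processed transcript Eif2ak2-203 at 26.3%. The second table gave most to Eif2ak2-203, at 35.1%, and 27.6% to Eif2ak2-201.

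Transcripts classed as retained intron, which chromatin RNA that is not fully spliced can match, are annotated for 4 of the 7 genes. Their mean share of TPM was 61.9% in Tmem173, 58.4% in Adar, 50.2% in Ifih1 and 40.0% in Eif2ak2. The median over these 4 genes was 56.9, 50.4 and 55.5% in replicates 1, 2 and 3, and 54.3% on their means, beside a median of 46.9% over 6518 protein-coding genes with such a transcript. In the second table the order was the reverse, with 32.8% for the 4 genes and 45.3% over protein-coding genes. As a share of expected counts in the first table the median of the 4 genes was 23.8%, for which no value over protein-coding genes is given. Ddx58, Dhx58 and Mavs have no annotated transcript of this class.

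Adar has alternative starts that give proteins of different length. In the mouse, as in human cells, the long form p150 is known to be made from an interferon-inducible promoter and the short form p110 from a constitutive one. Adar-202 starts upstream at 89715022 and encodes 930 residues, while 4 protein-coding transcripts start downstream at 89730748, among them Adar-201 with 1152 and Adar-203 with 1178 residues. The downstream start lies 30 bases from the RefSeq start of the promoter window with GAAAGTGAA printed above, and the upstream windows held neither motif. Transcripts from the downstream start had 78.9, 63.6 and 63.9 TPM in replicates 1, 2 and 3, a mean of 68.8 ± 8.77 TPM (SD, n = 3), against 3.51, 4.71 and 4.51 TPM for Adar-202, a mean of 4.24 ± 0.643 TPM. The groups did not overlap, and the downstream form exceeded the upstream one 22.5, 13.5 and 14.2 times in the 3 libraries. In the second table these ratios were 28.6, 15.0 and 14.9. Only protein-coding transcripts enter the ratios, so they do not measure use of the starts themselves. Adar-209, a retained-intron transcript that also starts at 89715022, was left out and had 4.04, 3.88 and 3.95 TPM in the first table. The forms share most exons: 129 exon bases are particular to the upstream transcript and 91 to the downstream ones, and all other reads are divided by the estimate alone.

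The largest single transcript of Adar was Adar-208, a retained-intron transcript, with 81.1, 70.0 and 60.2 TPM in replicates 1, 2 and 3 and 40.0% of the gene's TPM. Adar-203 held 22.4%, Adar-201 16.8% and the retained-intron transcript Adar-207 16.1%. Adar-204 and Adar-205, also from the downstream start, were listed at 0.

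**Figure D4:**
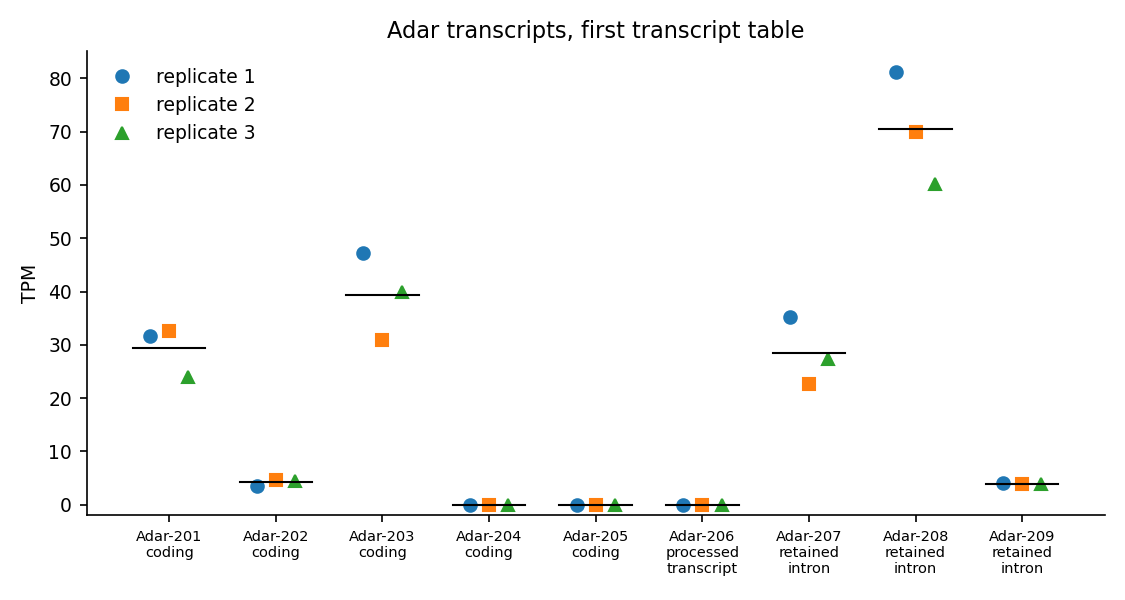
TPM of the 9 annotated Adar transcripts in the first transcript table, with their GENCODE class, 1 point per library (replicates 1, 2 and 3) and a line at the mean. Adar-208 is the highest in every library, and Adar-202, the 1 protein-coding transcript from the upstream start, lies between 3.51 and 4.71 TPM.

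Some member values share sequence with a neighbour, and the strand setting of the counting is not given in the sources used here. Dhx58os, annotated antisense to Dhx58, shares 141 exon bases with it and had 4.33, 3.50 and 3.60 TPM in replicates 1, 2 and 3. Chrnb2, on the opposite strand at the Adar locus, shares 1365 exon bases and had 16.1, 7.99 and 12.3 TPM. Gm26637 shares 174 exon bases with Eif2ak2 and had 8.42, 5.57 and 6.61 TPM. The ribosomal RNA gene n-R5s29 shares 47 exon bases with Eif2ak2. In the gene table n-R5s29 had 1, 0 and 0 expected counts in replicates 1, 2 and 3 and was listed at 0 TPM. The second table listed it at 227, 15.4 and 88.8 TPM, and Eif2ak2 at 358, 237 and 237 TPM. This neighbour is short, at 78858934 to 78859052, and TPM divides by length. The counts behind its level in the second table are not given. The other 3 neighbours were listed well below their partners, and reads in shared bases cannot be assigned with certainty.

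The other genes of these pathways were taken from 4 lists of 81 genes by role, chosen with earlier results of these data known. Of the 81, 77 had at least 1 TPM in every library, beside 45.2% of protein-coding genes. Partners and regulators of the RNA sensors reached that level in 24 of 26, with a median of 52.7 TPM. Ikbke, which encodes the kinase IKKε downstream of MAVS, was the highest at 1041 ± 180 TPM, followed by the helicase-like Ddx60 at 453 ± 110 TPM and Nlrc5, best known as a regulator of MHC class I genes, at 380 ± 92.9 TPM (SD, n = 3 each). Rnf125, a ubiquitin ligase that acts on RIG-I and MDA5, was listed at 0. Tank, an adaptor of TBK1, varied most, with 134, 37.3 and 73.7 TPM in replicates 1, 2 and 3.

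Other genes of double-stranded RNA binding, editing and decay reached 1 TPM in every library for 18 of 19, with a median of 56.6 TPM. The highest belong to the oligoadenylate synthetase family: Oasl2 with 543 ± 186 TPM, Oas2 with 279 ± 66.9 TPM and Oasl1 with 156 ± 72.1 TPM (SD, n = 3 each). Adarb1, the other catalytically active editing enzyme beside Adar, was at 0.03, 0.10 and 0.12 TPM in replicates 1, 2 and 3, far below the 176 TPM of Adar.

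The DNA sensing list around STING reached 1 TPM in every library for 21 of 22 genes, with a median of 8.16 TPM. Samhd1, a hydrolase of deoxynucleotides, had 819 ± 190 TPM, Ifi204, a DNA-binding member of the p200 family, 427 ± 174 TPM, and the inflammasome sensor Aim2 130 ± 37.0 TPM (SD, n = 3 each). Cgas, whose product makes the STING ligand and which was named after its value was seen, had a mean of 8.65 TPM, close to that of Mavs. Banf1, a chromatin protein that restrains cGAS, was the lowest at 0.950 ± 0.0917 TPM. Rnaseh2c, a subunit of the nuclease that removes RNA from DNA hybrids, had the largest SD of log2 CPM of the list, 0.45, at 4.94, 4.87 and 6.11 TPM. On log2 CPM its replicate 2 was the highest and replicate 1 the lowest, unlike on TPM. It averaged only 54.4 counts.

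The list around PKR and the integrated stress response reached 1 TPM in every library for 14 of 14 genes, with a median of 10.6 TPM. Ddit3, a transcription factor induced by this response, had 67.3 ± 29.4 TPM, Ppp1r15a, which encodes a phosphatase subunit that reverses eIF2α phosphorylation, 52.8 ± 34.8 TPM, and the transcription factor Atf4 43.5 ± 8.51 TPM (SD, n = 3 each). Ppp1r15a had the largest SD of the list, with 69.4, 12.8 and 76.2 TPM in replicates 1, 2 and 3, the low value being in replicate 2. The lowest gene was Eif2b1, a subunit of the exchange factor for eIF2, at 3.60 ± 1.01 TPM. Eif2ak2 itself was above every gene of this list.

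**Figure D5:**
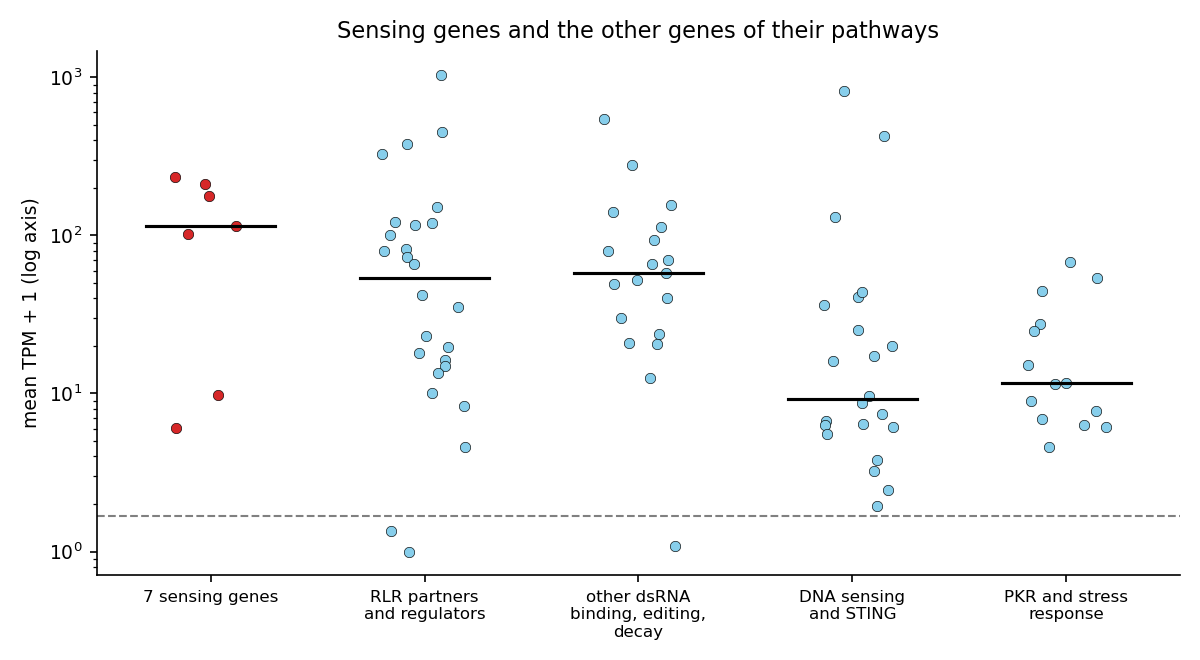
Mean TPM + 1 over the 3 libraries on a log axis, with 1 point per gene, for the 7 sensing genes (left) and the 4 lists of other pathway genes; bars mark medians and the dashed line the median of all protein-coding genes. The median of the 7 genes, 114 TPM, lies above those of the 4 lists, which run over 8.16 to 56.6 TPM.

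Ifnb1, the interferon gene at the end of these pathways, had 2.09, 0.300 and 0.560 TPM in replicates 1, 2 and 3, from 13, 4 and 4 expected counts. Its replicate 1 was the highest on TPM, as for 6 of the 7 genes, beside 51.4% of protein-coding genes that averaged 50 or more counts. A difference between libraries is weakly determined at the counts of Ifnb1.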

How the data were processed

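The deposited gene table and first transcript table of each library hold the authors' expected counts, TPM and FPKM, and the deposited second transcript table holds estimated counts and TPM, all on genome mm10 and annotation M21 per the file headers and deposited notes. The sources used here name no aligner or quantification program. Coordinates, transcript classes and coding lengths came from GENCODE M21, matched by identifier, and promoters from RefSeq. Entries that name no gene, nearly all phiX, took 2.46, 0.484 and 0.327% of counts in replicates 1, 2 and 3 and stayed out of library sizes.

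Expected counts were rounded to whole numbers and scaled with TMM factors of edgeR 4.0.16 (1.03, 0.984 and 0.985 in replicates 1, 2 and 3) at a prior count of 2. The SD of log2 CPM used genes that averaged 50 or more counts, and the steps were tested on simulated data. Intervals cover counting error only. Alternatives were size factors of DESeq2 1.42.0, library size alone, FPKM, the second table, other filters, pseudocounts and prior counts, and leaving out each replicate.

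The members and lists were chosen with earlier results of these data known. Named were all members, the 3 highest, the lowest and the most variable gene of each list, transcripts with a mean of at least 10% of their gene's TPM, or the largest share in a library, in either table, the 3 nearest profiles, Ifnb1 and overlapping genes. Ddit3 matched 2 identifiers, and the entry whose identifier sorts first was used, without regard to level. The level of its other entry is not given. Software was Python 3.11.15 (numpy 2.4.6, pandas 2.3.3, matplotlib 3.10.9) and R 4.3.3.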

Additional observations from a re-analysis of the deposited data

How the results depend on the processing

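The 6.11 log2 units by which the median of the 7 genes stood above that of all protein-coding genes became 5.66 in the second transcript table, 7.29 with a pseudocount of 0.1, 3.29 against protein-coding genes that averaged 1 TPM or more, and 5.16 on protein-coding transcripts only, an alternative chosen after seeing the data. It was 6.00 to 6.19 with 1 replicate left out, and 6.04 on FPKM. The pseudocount and the filter change the background by their own construction, and the cause of the other shifts was not tested. The median SD of the 7 genes was 0.10 to 0.36 with 1 replicate left out, the low value being without replicate 1, and 0.24 to 0.30 under the other scalings, tables and filters. Over protein-coding genes the median SD was 0.14 to 0.19 and 0.16 to 0.23 in the same order. On log2(TPM + 1) the 7 genes and the protein-coding genes hardly differed, at 0.235 and 0.230. The number of genes highest in replicate 1 was 4 to 6 over all settings, and cannot be given without replicate 1. The share of protein-coding genes highest there moved too. It ran from 31.6% at a mean of at least 10 counts, beside 4 genes, to 51.4% on log2(TPM + 1), beside 6. With no filter on counts it was 52.3%, beside 4 genes, but that background includes genes without counts, such as Rnf125. The count of genes is therefore to be read against the share of its own setting. The median retained-intron share was 32.8% in the second table, below the 45.3% of protein-coding genes there, 23.8% on expected counts and 52.9 to 56.2% with 1 replicate left out, against 54.3%. All 7 genes stayed at 1 TPM or more under each setting, 3 to 5 neighbouring pairs were separated and 75 to 77 pathway genes passed. The share of all protein-coding genes at that level, 45.2%, is given for the main setting only. No paired analysis was possible because there is only 1 group. With 3 libraries of 1 group, the SDs are themselves loosely determined, and Tmem173, with 48 to 109 counts, is limited by depth.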
